A study of Mus musculus with 2 samples.

Results

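Cells that held transcripts of both the monocyte fate factor Irf8 and the neutrophil fate factors Gfi1 and Cebpe made up 189 of 8916 cells. A cell was counted as co-expressing when it had at least 2 Irf8 UMIs and at least 2 UMIs of Gfi1 and Cebpe summed. A UMI, or unique molecular identifier, marks 1 captured transcript molecule. The cells were compared with cells that met only 1 of these limits, here called Irf8-only and Gfi1/Cebpe-only cells. The groups were chosen by the measured counts of these 3 genes, which are therefore given as a description only.

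The cells came from bone marrow of C57BL/6 mice, enriched for stem and progenitor cells and infected with a retrovirus that carried a control shRNA matching no mouse gene or an shRNA against Cxxc5. GFP-positive, and so infected, LSK cells (an immature fraction without lineage markers and with Sca-1 and Kit) were sorted and cultured for 3 days in 20% serum with 10 ng/ml of GM-CSF and of SCF. Each group was sequenced as 1 droplet library pooled from 5 samples, so both groups share strain, sort, virus backbone and culture, and differ in the shRNA. With 1 library per group no difference has a replicate check, no test was possible, and every interval is a 95% interval for counting error only, which leaves out the spread between cells.

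IRF8 is a transcription factor that drives the formation of monocytes and dendritic cells. GFI1, a zinc finger repressor, and C/EBPε, a factor of the C/EBP family, are needed for neutrophil formation and for the making of neutrophil granules. The IRF8 and GFI1 programmes are known to oppose each other in progenitors that can still form both lineages, and a cell that holds transcripts of both factors is therefore of interest as a point where the lineages part.

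The 3 genes lie on different chromosomes. In GENCODE M21, which uses GRCm38, Irf8 (ENSMUSG00000041515) spans chr8:120736358-120756694 on the plus strand, Gfi1 (ENSMUSG00000029275) chr5:107716657-107726036 on the minus strand, and Cebpe (ENSMUSG00000052435) chr14:54710360-54712174 on the minus strand. The 250 bases before the RefSeq start of Irf8 (chr8:120736108-120736357, plus strand) and of Gfi1 (chr5:107725806-107726055, minus strand, GRCm38.p6) are shown because GFI1 is known to bind sites with the core AATC. The RefSeq start of Gfi1 lies inside the GENCODE gene. Capitals mark each match to AATC, all of them on the opposite strand and so written GATT.
Irf8: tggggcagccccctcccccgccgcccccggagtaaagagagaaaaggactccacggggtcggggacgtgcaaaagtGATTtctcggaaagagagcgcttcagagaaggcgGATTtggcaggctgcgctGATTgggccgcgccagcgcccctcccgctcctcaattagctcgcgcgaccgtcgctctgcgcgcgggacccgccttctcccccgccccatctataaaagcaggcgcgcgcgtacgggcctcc
Gfi1: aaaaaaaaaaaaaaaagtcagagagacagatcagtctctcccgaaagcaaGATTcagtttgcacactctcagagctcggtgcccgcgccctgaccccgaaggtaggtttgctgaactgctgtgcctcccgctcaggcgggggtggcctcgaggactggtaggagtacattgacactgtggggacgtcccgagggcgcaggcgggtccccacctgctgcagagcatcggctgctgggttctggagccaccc
The Irf8 window held 3 matches, with first bases at -174, -140 and -122 from the start, and the Gfi1 window 1 match at -200. AATC on either strand was present in 69.0% of 32851 windows of the same length, so its presence alone sets neither window apart. The ETS core GGAA, which PU.1 binds, had 1 match in the Irf8 window and 0 in the Gfi1 window, against 93.4% of all windows with a match. The C/EBP motif TTGCNNAA had 0 and 1 match (9.56% of windows), and the composite ETS-IRF motif had 0 in both (2.30% of windows). A match is a run of letters and not a shown binding site.

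The control library held 113 co-expressing cells among 2912 (3.88%, 3.21 to 4.65%) and the knockdown library 76 among 6004 (1.27%, 0.999 to 1.58%). Irf8-only cells numbered 359 (12.3%) and 470 (7.83%), Gfi1/Cebpe-only cells 1839 (63.2%) and 3763 (62.7%), and 601 and 1695 cells met neither limit. The libraries had 49333454 and 62910229 UMIs in all, with a median of 17197 and 10599 per cell, so a limit of 2 UMIs asks for a higher level in the knockdown library. Co-expressing cells were the deepest group, at a median of 23113 UMIs and 4330 genes in the control library and 13661.5 UMIs and 3246.5 genes in the knockdown library. Irf8-only cells had medians of 18794 and 11249.5 UMIs and Gfi1/Cebpe-only cells 18167 and 10994. The mitochondrial share had medians between 3.85% and 4.04% in the 3 groups of both libraries.

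Many co-expressing cells sat at a limit. Exactly 2 Irf8 UMIs were found in 48 of the 113 control and 32 of the 76 knockdown cells, and exactly 2 Gfi1 plus Cebpe UMIs in 46 and 40. The median was 3 Irf8 UMIs in both libraries, against 5 and 3 in Irf8-only cells, and 3 and 2 Gfi1 plus Cebpe UMIs, against 8 and 5 in Gfi1/Cebpe-only cells. Just outside the rule, 110 control and 141 knockdown cells had 1 Irf8 UMI and met the Gfi1/Cebpe limit, and 115 and 112 cells met the Irf8 limit with 1 Gfi1 or Cebpe UMI. At least 4 UMIs on both sides were held by 21 control and 7 knockdown cells.

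Cebpe carried the neutrophil side more often than Gfi1. Cebpe alone reached 2 UMIs in 50 control and 46 knockdown cells, Gfi1 alone in 27 and 11, both genes in 19 and 7, and 1 UMI of each in 17 and 12. Gfi1 nevertheless made up a larger share of the summed Gfi1 and Cebpe UMIs than in Gfi1/Cebpe-only cells of the control library, 32.5% (28.3 to 36.9%) against 19.5% (18.9 to 20.1%). Among control cells with a total of 2 or 3 such UMIs, where both groups have equally few, the shares were 45.2% (37.0 to 53.6%) and 30.4% (27.3 to 33.7%). The knockdown library gave 34.5% (25.9 to 43.9%) and 29.8% (28.1 to 31.5%) at the same totals, a difference within the counting intervals. At totals of 4 to 9 the shares were 28.7% (22.9 to 35.01%) against 22.7% (21.5 to 23.8%) in the control and 23.7% against 23.3% in the knockdown library, again within the intervals.

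Meeting the Irf8 limit went with a lower chance of meeting the Gfi1/Cebpe limit at every depth. Of the control cells that met the Irf8 limit, 113 of 472 (23.9%) also met the Gfi1/Cebpe limit, against 75.4% of those that did not. The knockdown shares were 76 of 546 (13.9%) and 68.9%. In control cells of 10000 to 15000 UMIs the shares were 14.3% (7.07 to 24.7%) and 68.8%, and in those of 15000 to 20000 UMIs 21.8% (14.9 to 30.1%) and 85.1%. The knockdown library gave 15.2% (11.1 to 20.0%) and 76.1%, then 24.7% and 83.9%, in the same ranges. At a like depth, the share of Irf8-positive cells that also met the neutrophil limit thus differed between the libraries by less than the counting intervals.

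**Figure D1:**
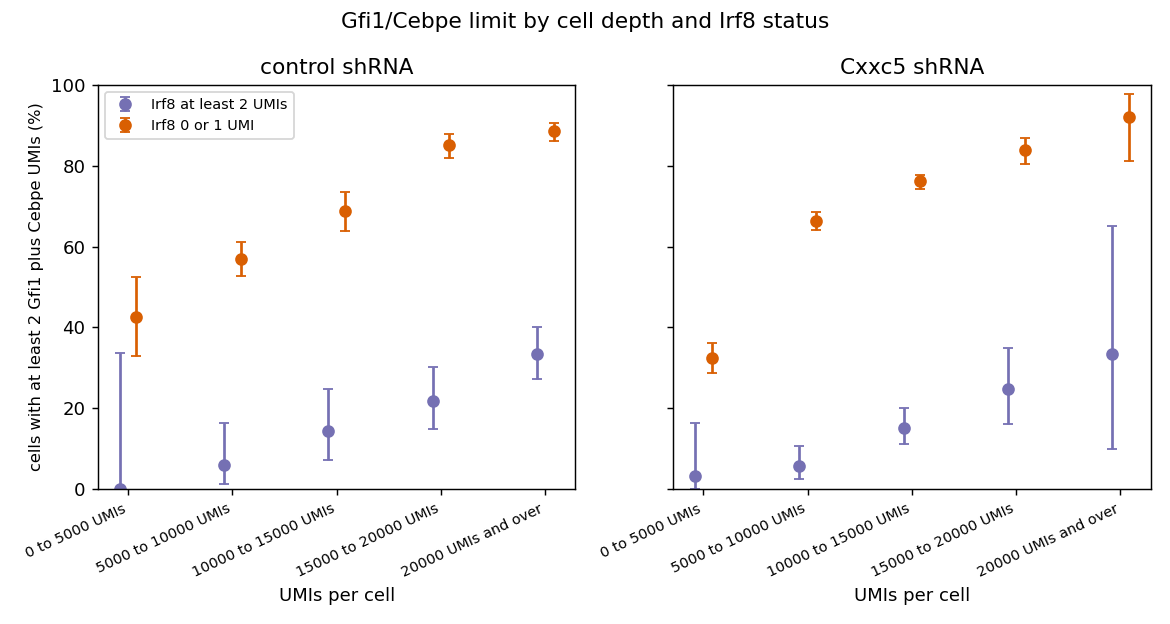
Share of cells (percent) with at least 2 Gfi1 plus Cebpe UMIs, by UMIs per cell, in cells with at least 2 Irf8 UMIs and in cells with 0 or 1. Bars are 95% Clopper-Pearson intervals. The shares are higher at greater depth in both classes, and cells with at least 2 Irf8 UMIs lie below the others in every range of both libraries, from 33.5% against 88.6% in the deepest control cells to 5.59% against 66.4% in knockdown cells of 5000 to 10000 UMIs.

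The shares were highest in cells with no UMI of the opposite factor. In control cells of 10000 to 20000 UMIs, the Gfi1/Cebpe limit was met by 82.4% of 847 cells with no Irf8 UMI, 44.3% of 97 cells with 1, 36.4% of 55 cells with 2, and 0 of 51 cells with 6 or more, where the exact upper limit is 6.98%. The knockdown library gave 81.5%, 40.0%, 19.3% and, with 6 or more Irf8 UMIs, 13.3%. Read the other way, the Irf8 limit was met by 43.8% of control cells with no Gfi1 or Cebpe UMI, 30.6% with 2, 5.66% with 4 and 0.554% with 6 or more. The corresponding knockdown shares were 35.4%, 9.60%, 2.26% and 0.391%. Cells rich in both factors were rare in both libraries.

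**Figure D2:**
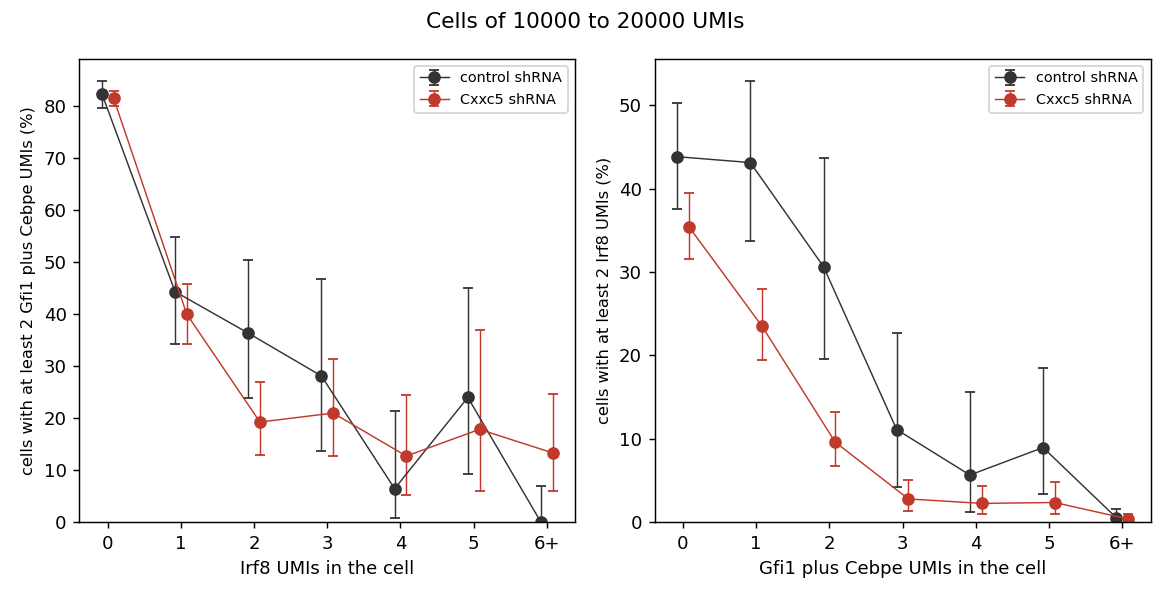
Cells of 10000 to 20000 UMIs. Left, share of cells (percent) with at least 2 Gfi1 plus Cebpe UMIs by the number of Irf8 UMIs. Right, share with at least 2 Irf8 UMIs by the number of Gfi1 plus Cebpe UMIs. Bars are 95% Clopper-Pearson intervals. Both shares are highest at 0 UMIs of the opposite factor, 82.4% and 43.8% in the control library, and low at 6 or more, 0% and 0.554%.

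The lower frequency of co-expressing cells in the knockdown library moved with depth. When each cell was thinned at random to 5000 UMIs, both limits were met by 4 of 2797 cells of the control library (0.143%, 0.0390 to 0.366%) and by 7 of 5363 of the knockdown library (0.131%, 0.0525 to 0.269%), with 115 and 641 shallower cells left out. In cells of 10000 to 15000 UMIs the shares were 2.22% (1.07 to 4.04%) and 1.51% (1.08 to 2.04%), and from 15000 to 20000 UMIs 3.93% (2.61 to 5.67%) and 3.47% (2.19 to 5.21%). No difference between the libraries was detectable in these narrow ranges. Over 10000 to 20000 UMIs together the shares were 3.25% (2.30 to 4.45%) and 1.88% (1.45 to 2.40%), and the cells there that met the Irf8 limit still had median depths of 16279.5 and 12802 UMIs. From 10000 to 15000 UMIs, the Irf8 limit itself was met by 15.5% (12.3 to 19.2%) of cells with the control and 9.92% (8.82 to 11.1%) of cells with the Cxxc5 shRNA.

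RNA set free in the suspension can put a UMI in a cell that does not express the gene, so the limits were also read in cells of other kinds, where the factors should be low. Among cells with at least 10 UMIs of the late granule genes Ltf and Camp, the Irf8 limit was met by 2 of 361 in the control library (0.554%, 0.0672 to 1.99%) and 3 of 494 in the knockdown library (0.607%, 0.125 to 1.76%), at median depths of 12384 and 8164.5 UMIs. Over all cells 16.2% and 9.09% met it. The neutrophil side was less clean. In cells of 10000 to 20000 UMIs, the Gfi1/Cebpe limit was met by 2 of 34 control cells rich in the class II genes Cd74 and H2-Aa (5.88%, 0.720 to 19.7%) and by 2 of 27 rich in the mast cell genes Cma1, Cpa3 and Prss34 (7.41%, 0.910 to 24.3%). Cells that met the Irf8 limit in the same range gave 37 of 194 (19.1%, 13.8 to 25.3%). The knockdown library gave 5 of 23 (21.7%, 7.46 to 43.7%) and 3 of 13 (23.1%, 5.04 to 53.8%) in the reference cells and 63 of 359 (17.5%, 13.8 to 21.9%) in cells with the Irf8 limit met. All 5 of these knockdown class II-rich cells held at least 4 Gfi1 plus Cebpe UMIs (21.7%), as did 19 of 359 cells with the Irf8 limit met (5.29%, 3.22 to 8.14%) and 0 of the 13 mast cell gene-rich cells. Whether such reference cells express Gfi1 or Cebpe themselves was not tested, and their shares may exceed the background. For Gfi1 and Cebpe, the intervals overlap in the control library, and the knockdown share is no higher than in the reference cells. The compared groups share cells, because 17 of the 34 control and 11 of the 23 knockdown class II-rich cells met the Irf8 limit. Without class II-rich cells, the cells that met the Irf8 limit gave 36 of 177 (20.3%, 14.7 to 27.0%) and 62 of 348 (17.8%, 13.9 to 22.2%). The control intervals still overlap, and the knockdown share is still no higher. The reference cells thus do not set the Gfi1 and Cebpe counts of co-expressing cells apart from background by frequency. From 10000 to 20000 UMIs, the Irf8 limit was met by 3 of 154 knockdown cells rich in Ltf and Camp (1.95%, 0.404 to 5.59%). Knockdown cells that met the Gfi1/Cebpe limit gave 63 of 2386 (2.64%, 2.03 to 3.37%). The control library gave 0 of 182 (upper limit 2.01%) and 37 of 778 (4.76%). All 3 knockdown reference cells also met the Gfi1/Cebpe limit and so are co-expressing cells themselves. They therefore cannot decide whether the knockdown Irf8 counts exceed background.

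A droplet with 2 cells would also hold both factors. Of the co-expressing cells, 4 of 113 and 1 of 76 had at least as many UMIs as the median Irf8-only and the median Gfi1/Cebpe-only cell together (36961 and 22243.5 UMIs). These are 3.54% and 1.32% of co-expressing cells, against 0.927% and 0.366% of all cells. The Scrublet doublet caller marked only 8 control and 14 knockdown cells (0.275% and 0.233%), too few for a working call. The 68 control and 288 knockdown cells with the highest scores included 9 and 14 co-expressing cells (7.96% and 18.4%), against 2.61% and 6.27% of Gfi1/Cebpe-only and 1.39% and 1.06% of Irf8-only cells. The libraries shared 26 barcodes, 1 of them a co-expressing control cell.

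Monocyte genes lay between the comparison groups. Ccr2, the chemokine receptor that brings monocytes to tissue, stood at 80.0 CPM (UMIs of the gene per 1e6 UMIs) in co-expressing control cells, 151 in Irf8-only and 7.68 in Gfi1/Cebpe-only cells. The knockdown levels were 40.8, 107 and 4.73 CPM. Ms4a6c, a membrane protein of monocytes, was at 46.4, 105 and 4.05 CPM in control cells and at 42.7, 85.7 and 2.68 CPM after knockdown. In both libraries and for both genes the co-expressing cells were below Irf8-only cells and far above Gfi1/Cebpe-only cells.

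Csf1r, the receptor for the monocyte growth factor M-CSF, followed the same order in the control library, with 20.6, 41.5 and 1.77 CPM. In the knockdown library it was at 22.8 CPM in co-expressing and 26.0 CPM in Irf8-only cells, and that log2 difference has a counting interval that includes 0. Klf4, a transcription factor needed for monocytes, was at 25.1, 41.3 and 0.671 CPM, and Irf5, a factor of the same family as IRF8, at 27.3, 63.4 and 3.51 CPM in the control library. The knockdown levels were 17.1, 36.4 and 0.813 CPM for Klf4 and 24.7, 48.1 and 2.84 CPM for Irf5. Klf4 and Irf5 thus kept the order of Ccr2 in both libraries.

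Among 18 monocyte markers, 15 reached 10 CPM in the comparison with Irf8-only cells. In co-expressing cells of both libraries, 9 of these were lower by 1.2-fold or more and 1 was higher, where 4.97% of all 6797 genes were lower and 6.16% higher by the same rule. Their median log2 ratios were -0.71 (control) and -0.48 (knockdown), beside 0.03 and 0.01 over all genes. Against Gfi1/Cebpe-only cells, 12 of 14 were higher and 0 lower, with medians of 2.104 and 1.977, where 18.1% of 6719 genes were higher and 8.28% lower and the medians over all genes were 0.13 and 0.08. Ly6c2, which is also expressed along the neutrophil path, was at 2153 CPM in co-expressing, 1716 in Irf8-only and 2573 in Gfi1/Cebpe-only control cells, and so ran in the opposite order. Of the 6 measured transcription factors of monocytes and dendritic cells, 4 were lower than in Irf8-only cells, with medians of -0.80 and -0.82. Id2 was the exception on the other side, at 25.1 and 15.2 CPM in co-expressing cells against 57.5 and 64.8 CPM in Gfi1/Cebpe-only cells. Among cells low in S100a8 and S100a9, described below, it was at 17.0 against 11.1 CPM and at 11.2 against 12.1 CPM.

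The primary granule genes, which encode proteases and enzymes packed early in neutrophil development, also lay in between. Elane, which encodes neutrophil elastase, was at 4371 CPM in co-expressing control cells, 2373 in Irf8-only and 9167 in Gfi1/Cebpe-only cells, and at 3414, 2105 and 8607 CPM in the knockdown library. Ctsg, which encodes cathepsin G, stood at 1988, 1199 and 2890 CPM and at 1647, 1196 and 3266 CPM. Both proteases were higher than in Irf8-only cells and lower than in Gfi1/Cebpe-only cells in both libraries.

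Mpo, which encodes myeloperoxidase, was close to the Gfi1/Cebpe-only level in the control library, 1603 against 1710 CPM, with 970 CPM in Irf8-only cells. The knockdown levels were 1410, 2006 and 1185 CPM. Prss57, a further granule protease, had 80.4 CPM in co-expressing, 29.8 in Irf8-only and 208 in Gfi1/Cebpe-only control cells, and 76.8, 40.4 and 220 CPM in the knockdown library. Nkg7, a granule membrane protein, ran in the same order, at 284, 118 and 702 CPM and at 197, 123 and 807 CPM. Elane UMIs were spread over the cells, with 13.4% and 15.8% of them in the 5 richest co-expressing cells.

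Of the 13 primary granule genes, 9 were higher and 0 lower than in Irf8-only cells in both libraries (medians 0.62 and 0.58). Over all genes 6.16% were higher and 4.97% lower. Against Gfi1/Cebpe-only cells 8.28% of all genes were lower and 18.1% higher. Of the 13 granule genes, 11 were lower and 1 higher there (medians -0.57 and -0.73). The gene that was higher was Ctsc, which encodes the cathepsin C that activates granule proteases, at 169 and 160 CPM against 52.3 and 54.1 CPM. Ctsc was as high or higher in Irf8-only cells, at 244 and 171 CPM.

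**Figure D3:**
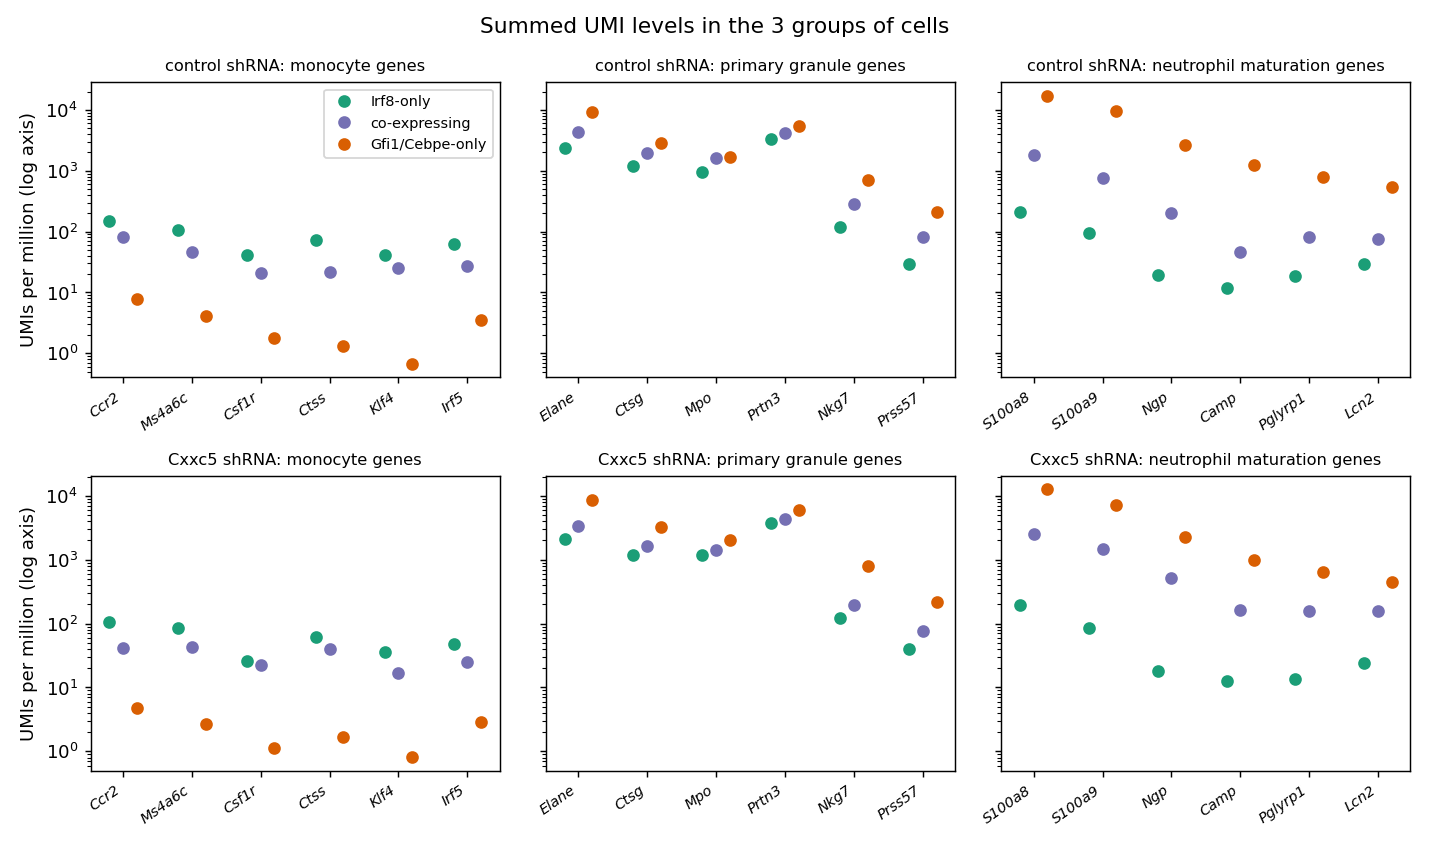
CPM (log axis) of 6 monocyte, 6 primary granule and 6 neutrophil maturation genes in Irf8-only, co-expressing and Gfi1/Cebpe-only cells of each library. Each point is a sum over the cells of 1 group in 1 library, and there is no error bar because each group had 1 library. All 18 genes of both libraries have the co-expressing cells between the other groups, with Elane at 2373, 4371 and 9167 and Ccr2 at 151, 80.0 and 7.68 in the control library.

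Among genes at least 2-fold apart between the comparison groups in both libraries, 197 were higher in Gfi1/Cebpe-only and 216 in Irf8-only cells. Co-expressing cells were between the groups for 183 and 180 of the 197 and for 208 and 186 of the 216 (control and knockdown). On the linear CPM scale they had covered a median of 24.2% and 25.9% of the way from Irf8-only to Gfi1/Cebpe-only cells for the genes higher in the latter. For the genes higher in Irf8-only cells the medians were 49.8% and 40.6%. An equal mixture of the summed levels of both groups would lie midway for every gene. The 15 neutrophil maturation genes in this comparison were below the midpoint in every case, at medians of 8.01% and 20.9% of the way. The midpoint holds for the whole Gfi1/Cebpe-only group, which includes cells with high and with low levels of the maturation genes. A mixture with only the low cells need not lie midway. Whether co-expressing cells include mixtures of either kind was not tested.

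The neutrophil maturation genes were concentrated in a few co-expressing cells. S100a8, which encodes a subunit of calprotectin, was at 1821 CPM in co-expressing, 209 in Irf8-only and 17085 in Gfi1/Cebpe-only control cells, and at 2496, 193 and 12799 CPM in the knockdown library. Of its UMIs in co-expressing cells, 75.3% and 74.6% were in 5 cells of each library. For Ngp, which encodes a granule protein of maturing neutrophils, 93.1% and 97.2% were in 5 cells, with group levels of 202 and 515 CPM. A level summed over the group therefore describes those cells more than the rest.

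Cell by cell, most co-expressing cells were low in the calprotectin genes. S100a8 and S100a9 together had a median of 3.19 UMIs per 10000 in co-expressing control cells, against 2.37 in Irf8-only and 43.5 in Gfi1/Cebpe-only cells. The knockdown medians were 4.12, 2.15 and 24.2. Fewer than 10 per 10000 were found in 90 of 113 (79.6%) and 58 of 76 (76.3%) co-expressing cells, in 96.7% and 98.7% of Irf8-only cells, and in 33.6% and 39.0% of Gfi1/Cebpe-only cells. At least 100 per 10000 were found in 3 and 6 co-expressing cells.

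**Figure D4:**
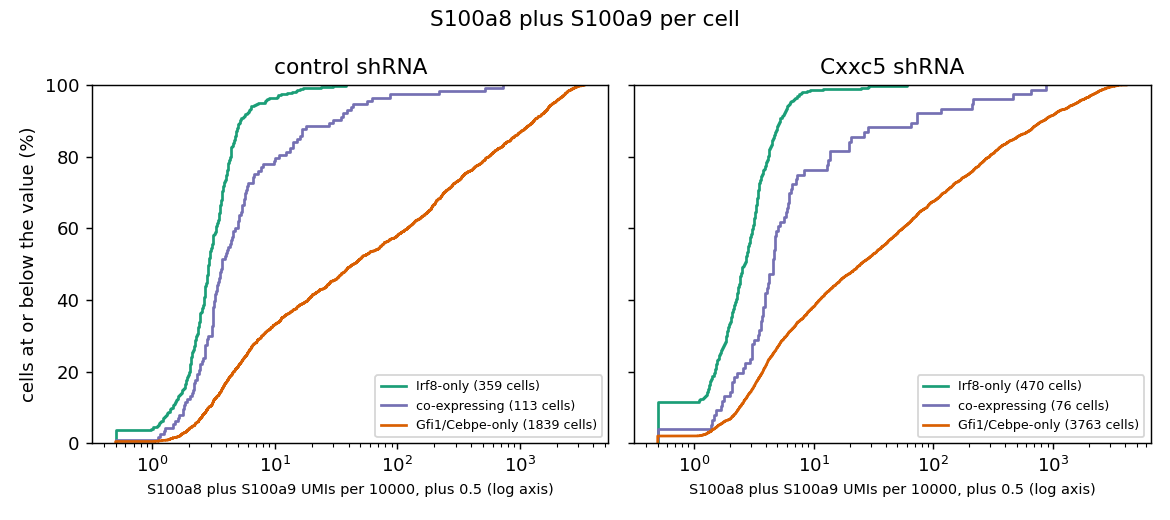
Cumulative share of cells (percent) by S100a8 plus S100a9 UMIs per 10000 (log axis, 0.5 added to each value) in the 3 groups of each library. The co-expressing cells lie near the Irf8-only cells up to about 10 per 10000, where 79.6% of control and 76.3% of knockdown cells have been reached, and then trail to high values.

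Of the 22 neutrophil maturation genes, 12 were measured against Irf8-only cells, and 11 were higher and 1 lower in both libraries, with medians of 2.06 and 3.38. Of all genes, 6.16% were higher and 4.97% lower. The lower maturation gene was Mmp8, which encodes neutrophil collagenase, at 12.7 and 19.0 CPM against 52.0 and 33.2 CPM. Against Gfi1/Cebpe-only cells 15 of 17 maturation genes were lower and 1 higher, with medians of -3.23 and -2.05, where 8.28% of all genes were lower and 18.1% higher. Without the 5 co-expressing cells of each library richest in S100a8 and S100a9, 8 of 11 were higher and 1 lower than in Irf8-only cells. The medians were then 0.37 and 1.59, where 6.53% of all genes were higher and 5.24% lower. S100a8 was then at 479 and 680 CPM, and Ngp at 17.5 and 26.4 CPM, beside 19.6 and 18.4 CPM in Irf8-only cells. The 5 control cells had 29202 to 35131 UMIs and the 5 knockdown cells 11316 to 17433, and 3 and 4 of them were among the cells with the highest Scrublet scores. Their part in the group's values as doublets was not tested.

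To compare cells low in the calprotectin genes, levels were also summed over cells with under 10 S100a8 plus S100a9 UMIs per 10000, a choice made after seeing these values. This left 90 and 58 co-expressing, 347 and 464 Irf8-only, and 618 and 1467 Gfi1/Cebpe-only cells. The limit kept 96.7% and 98.7% of Irf8-only but 33.6% and 39.0% of Gfi1/Cebpe-only cells. Whether the kept cells of the 3 groups are at a like stage was not tested. The order of the groups held for both programmes. Elane was at 3694 CPM in co-expressing, 2284 in Irf8-only and 6001 in Gfi1/Cebpe-only control cells, and at 3245, 2106 and 5725 CPM in the knockdown library. Ms4a6c was at 50.1, 107 and 7.30 CPM, and at 46.1, 86.9 and 5.02 CPM. Monocyte markers were lower than in Irf8-only cells for 9 of 15 genes (medians -0.81 and -0.43) and higher than in Gfi1/Cebpe-only cells for 13 of 14 (1.98 and 1.82), where 5.31% of all genes tested were lower and 8.52% higher. Primary granule genes were higher than in Irf8-only cells for 9 of 13 (0.59 and 0.55; 6.25% of all genes) and lower than in Gfi1/Cebpe-only cells for 8 of 13 (-0.47 and -0.62; 7.2% of all genes).

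Pglyrp1, an antibacterial granule protein, kept the in-between order among these S100a8-low cells, at 43.7 CPM in co-expressing, 16.6 in Irf8-only and 153 in Gfi1/Cebpe-only control cells and 56.0, 13.5 and 150 CPM in the knockdown library. These maturation genes were picked out after their values were seen. Wfdc21, a secreted protein of neutrophils, was at 63.4, 35.6 and 148 CPM and at 103, 36.1 and 190 CPM, in the same order. S100a8, Fcnb, Camp and Stfa1 also lay in between in both libraries, although the Camp differences have counting intervals that include 0. Chil3 did not lie in between in the knockdown library, at 82.2 CPM in co-expressing, 24.2 in Irf8-only and 15.3 in Gfi1/Cebpe-only cells. Ngp was at 15.2 and 13.7 CPM and Camp at 13.3 and 12.4 CPM in co-expressing S100a8-low cells, near the Irf8-only levels of 19.6 and 18.4 CPM for Ngp and 11.3 and 11.7 CPM for Camp. Of 11 maturation genes 5 were higher and 2 lower than in Irf8-only cells, and the list includes the calprotectin genes that chose these cells. Of all genes, 6.25% were higher and 5.31% lower. Against Gfi1/Cebpe-only cells, 3 of 12 maturation genes were higher and 5 lower, where 8.52% of all genes were higher and 7.2% lower.

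After thinning to 5000 UMIs, co-expressing cells held a median of 4 of the 18 monocyte markers and 3 of the 22 maturation genes in both libraries. Irf8-only cells held medians of 6 and 5 monocyte markers and 2 maturation genes, and Gfi1/Cebpe-only cells 3 monocyte markers and 6 and 5 maturation genes. At least 4 genes of each list were found together in 30 of 113 control (26.5%) and 28 of 75 knockdown co-expressing cells (37.3%). The shares were 16.0% and 10.5% in Irf8-only cells and 18.6% and 13.5% in Gfi1/Cebpe-only cells. Co-detection of both sets of genes, none of which chose the cells, was thus most frequent in co-expressing cells of both libraries.

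By a rule of at least 1.5-fold in both libraries among genes of 50 CPM or more, 28 of 2563 genes (1.09%) were higher and 14 (0.546%) lower than in Irf8-only cells. The 8 largest higher ratios belonged to Ngp, S100a8, S100a9, BC100530, Stfa1, Gm5483, Pglyrp1 and Wfdc21, of which BC100530, Stfa1 and Gm5483 belong to the stefin A cluster of near-identical protease inhibitor genes whose counts may not be separable. Between 33.5% and 97.2% of the UMIs of these 8 genes were in 5 cells. The 8 largest lower ratios belonged to Ifi203, Ms4a6c, Ctsh, Bmyc, Ccr2, Bcl2, Cd34 and H2-DMa. Ifi203, an interferon-inducible gene, had log2 ratios of -1.22 (-1.63 to -0.83) and -1.36 (-1.98 to -0.80). Cd34, a surface protein of progenitors, had ratios of -0.89 (-1.20 to -0.59) and -1.53 (-2.14 to -0.98), and Bcl2, which protects from cell death, -1.04 (-1.43 to -0.67) and -0.90 (-1.40 to -0.44).

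Against Gfi1/Cebpe-only cells, 47 of 2582 genes (1.82%) were higher and 80 (3.1%) lower. The largest higher ratios belonged to Milr1, Lpl, Psap, Rassf4, Sh3glb1, Ctsc, Cisd1 and Cfp. Milr1, an inhibitory immune receptor, was at 68.4 and 76.8 CPM in co-expressing cells, 93.1 and 94.6 in Irf8-only and 7.99 and 7.87 in Gfi1/Cebpe-only cells, with log2 ratios of 3.10 (2.82 to 3.38) and 3.29 (2.92 to 3.64) over the latter. Lpl, which encodes lipoprotein lipase, had ratios of 2.33 (2.07 to 2.59) and 2.46 (2.14 to 2.77), and Psap, the precursor of lysosomal saposins, 1.82 (1.71 to 1.94) and 1.97 (1.80 to 2.14). All 8 of these genes were lower in co-expressing than in Irf8-only cells, and at most 29.7% of their UMIs were in 5 cells. The largest lower ratios were those of Lipg, Camp, BC100530, S100a8, 2010005H15Rik, Stfa2, Stfa1 and S100a9, all concentrated in few co-expressing cells.

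Factors shared by both lineages differed little. Of 17 shared and progenitor transcription factors measured, 0 were higher and 1 lower than in Irf8-only cells (medians 0.01 and 0.02), and 1 was higher and 0 lower than in Gfi1/Cebpe-only cells (0.05 and -0.01). Of all genes, 6.16% were higher and 4.97% lower than in Irf8-only cells, and 18.1% higher and 8.28% lower than in Gfi1/Cebpe-only cells. Spi1, which encodes PU.1, stood at 339, 338 and 380 CPM in co-expressing, Irf8-only and Gfi1/Cebpe-only control cells and at 269, 307 and 350 CPM in the knockdown library. Cebpa, needed for all granulocyte-monocyte progenitors, was at 102, 66.8 and 96.0 CPM in control cells and at 70.2, 71.8 and 99.3 CPM after knockdown, so that the co-expressing cells matched a different group in each.

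Of 14 measured cytokine and chemokine receptors, 6 were lower and 1 higher than in Irf8-only cells, where 4.97% of all genes were lower and 6.16% higher. Csf2rb, the shared chain of the receptor for the GM-CSF in the medium, was at 104 and 89.1 CPM in co-expressing, 130 and 111 in Irf8-only, and 58.8 and 55.7 in Gfi1/Cebpe-only cells. Csf3r, the receptor for the neutrophil growth factor G-CSF, had 10.1 and 7.59 CPM in co-expressing, 6.23 and 5.88 in Irf8-only, and 19.0 and 19.4 in Gfi1/Cebpe-only cells. Csf2rb and Csf3r ran in opposite orders over the groups, although the log2 ratio of Csf3r over Irf8-only cells has a counting interval that includes 0 in both libraries. Of 6 stem and multipotent progenitor markers, 5 were lower and 1 higher than in Irf8-only cells, and 4 of 5 were higher than in Gfi1/Cebpe-only cells. Against Gfi1/Cebpe-only cells, 18.1% of all genes were higher and 8.28% lower. Among S100a8-low cells 0 of 5 such markers were higher than in Gfi1/Cebpe-only cells (medians 0.23 and -0.08). The marker that was higher than in Irf8-only cells was Kit, the receptor for SCF, at 25.1 and 26.5 CPM against 17.5 and 18.4 CPM. Among 4 measured genes known as repressed by GFI1, 1 was lower than in Irf8-only cells, and 2 were higher and 1 lower than in Gfi1/Cebpe-only cells.

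Few proliferation genes passed the limit of 1.2-fold. Of 24 S phase genes 1 was lower and 0 higher than in Irf8-only cells, and of 24 G2/M genes 0 were higher or lower, where 4.97% of all genes were lower and 6.16% higher. Against Gfi1/Cebpe-only cells 4 of the S phase and 2 of the G2/M genes were higher, where 18.1% of all genes were. Ribosome biogenesis genes were higher than in Gfi1/Cebpe-only cells for 8 of 14 (medians 0.47 and 0.28), with Npm1 at 2578 against 1877 CPM in the control library. Among S100a8-low cells the count was 0 of 14. The 10 housekeeping genes gave 0 higher and 0 lower in either comparison.

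Some markers of other cell types sat in very few co-expressing cells. All Ccl17 UMIs, a chemokine of dendritic cells, were in 2 co-expressing cells of each library, and 5 cells held 95.4% of control and all knockdown UMIs of the class II gene Cd74. Summed over 15 dendritic cell markers, co-expressing cells had 312 and 400 CPM, against 850 and 470 in Irf8-only and 134 and 135 in Gfi1/Cebpe-only cells, and Siglech, Cd209a and Xcr1 were at 0 in both libraries. Of 7 measured dendritic markers, 4 were lower than in Irf8-only cells and 6 higher than in Gfi1/Cebpe-only cells. In the same comparisons 4.97% of all genes were lower and 18.1% higher. Bst2, a membrane protein of plasmacytoid dendritic cells that other cells also express, was spread over 108 of 113 and 60 of 76 co-expressing cells, at 151 and 133 CPM, against 168 and 163 in Irf8-only and 109 and 112 in Gfi1/Cebpe-only cells. The 13 mast cell and basophil markers summed to 148 and 63.5 CPM, and all Cma1 UMIs of the control group were in 1 cell. Only 1 of these 13 was measured against Irf8-only cells in both libraries, and it did not pass in both. Hdc, the enzyme that makes histamine, was at 19.1 against 7.44 CPM in the control and 4.74 against 6.44 CPM in the knockdown library. The 7 eosinophil markers summed to 8.60 and 4.74 CPM, the 12 megakaryocyte and erythroid markers to 17.6 and 19.0 CPM, and the 8 lymphoid markers to 77.8 and 85.3 CPM with Cd3e, Cd79a, Dntt, Ebf1, Il7r and Klrd1 at 0. Their part in the other values was not tested.

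Co-expressing cells differed among themselves in the maturation genes. Cells with at least 2 Cebpe UMIs (69 control, 53 knockdown) had S100a8 at 2665 and 3496 CPM, against 365 and 360 CPM in the 44 and 23 cells with 0 or 1. Maturation genes were higher in the former for 11 of 13 and 13 of 15, with medians of 1.80 and 2.87, where 18.3% and 27.9% of all genes were higher. The 5 cells of each library richest in S100a8 and S100a9 all had at least 2 Cebpe UMIs. The difference without those cells was not tested. Dendritic cell markers were higher for 4 of 7 and 6 of 7 (medians 0.59 and 2.07), and mast cell and basophil markers for 5 of 5 in the control and 0 of 2 in the knockdown library. Several of these markers sat in very few cells, as given above for Ccl17, Cd74 and Cma1, so these counts need not describe most cells. For Cd74, 79 knockdown UMIs were in the cells with at least 2 Cebpe UMIs and 1 in the others. Primary granule genes gave medians of 0.10 and -0.02 and monocyte markers -0.09 and -0.20 in the same comparison, beside -0.04 and -0.05 over all genes. The medians of the primary granule genes and the monocyte set thus did not shift as that of the maturation genes did. Of 15 monocyte markers, 4 were higher and 7 lower in the control library, and 4 higher and 6 lower in the knockdown library. Of all genes, 1802 of 7200 and 2323 of 7183 were lower. F13a1 was at 26.0 against 87.7 CPM in the control and 39.0 against 44.6 CPM in the knockdown library.

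Cells with at least 5 Irf8 UMIs (35 and 14) had higher monocyte markers than the 48 and 32 cells with exactly 2, for 10 of 15 and 10 of 16 genes, with medians of 0.39 and 0.51, where 25.1% and 33.5% of all genes were higher. Maturation genes were higher for 8 of 12 and 13 of 17 (medians 0.73 and 0.60). Ms4a6c was at 74.99 and 109.6 CPM against 26.9 and 16.2 CPM, and Csf1r at 32.4 and 62.0 CPM against 12.9 and 6.93 CPM, the last of these from 3 UMIs. Elane was lower in the former, at 3808 and 2479 CPM against 4500 and 3721 CPM. Most of the monocyte markers were thus higher in the cells with at least 5 Irf8 UMIs. The transcription factors of monocytes and dendritic cells gave medians of 0.08 and -0.13. Of these, 3 were higher and 1 lower of 6 in the control library, and 2 higher and 2 lower of 7 in the knockdown library. The maturation genes were higher in sum, but 1 control cell held 386 of the 410 Ngp and 50 of the 61 Camp UMIs. In the knockdown library 1 cell held 131 of 132 and 75 of 76. Both cells were among those with the highest Scrublet scores, and the maturation comparison without them was not tested.

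The last comparison asked how co-expressing cells of the knockdown library differed from those of the control library. Cxxc5 itself had 13 UMIs in control (4.86 CPM) and 0 in knockdown co-expressing cells, which allows up to 3.50 CPM. Of 2741 genes of at least 50 CPM, 31 (1.13%) were 1.5-fold higher and 41 (1.5%) lower in the knockdown library. Irf8 was at 165 and 247 CPM, Cebpe at 120 and 163 CPM and Gfi1 at 57.6 and 64.5 CPM, and the limit of 2 UMIs weighs more in shallower cells.

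The 8 genes with the lowest knockdown over control ratios included Myl10, S100a4, Haus4, Ankrd12, Tmem219, Ccr2 and Tmem59. Myl10, which encodes a myosin light chain, was at 178 and 61.6 CPM, a log2 ratio of -1.53 (-1.92 to -1.15). It was also lower in Irf8-only cells, at -0.71 (-0.90 to -0.53), and in Gfi1/Cebpe-only cells, at -1.23 (-1.27 to -1.18). S100a4, a calcium-binding protein of motile cells, was at 130 and 48.4 CPM, with ratios of -1.42, -1.02 and -1.28 in the 3 groups, and Haus4, an augmin subunit of the mitotic spindle, gave -1.29, -0.93 and -1.36. These 3 genes were therefore lower in the knockdown library whichever group was read.

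Ankrd12 (-1.07, -1.62 to -0.55), Tmem219 (-1.01, -1.65 to -0.42) and Tmem59 (-0.87, -1.25 to -0.50) were lower in co-expressing cells, while their ratios in the other groups lay between -0.19 and -0.01. The knockdown levels of Ankrd12 and Tmem219 rest on 36 and 28 UMIs. Ccr2 was lower in all 3 groups, at -0.97 (-1.48 to -0.49), -0.50 (-0.65 to -0.35) and -0.70 (-0.97 to -0.42). The differences between groups in these ratios were not tested.

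**Figure D5:**
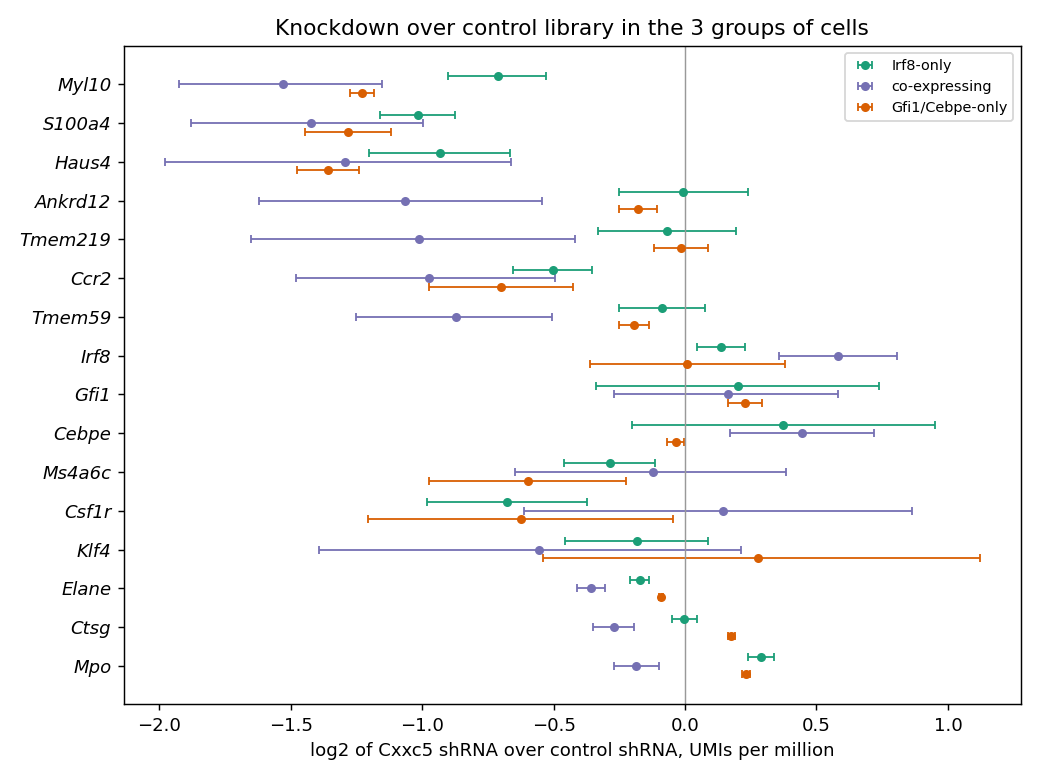
Log2 of the Cxxc5 shRNA over the control shRNA level (CPM) in Irf8-only, co-expressing and Gfi1/Cebpe-only cells, for 7 of the 8 genes lowest in co-expressing cells, the 3 genes of the rule, and 3 monocyte and 3 primary granule genes. Bars are 95% exact intervals for counting error. Myl10, S100a4, Haus4 and Ccr2 are left of 0 in all 3 groups, and Ankrd12, Tmem219 and Tmem59 in co-expressing cells at -1.07, -1.01 and -0.87.

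The 8 highest ratios were those of Camp, Ngp, BC100530, Ccl17, Stfa1, Lcn2, Gm5483 and Pglyrp1, which ranged from 0.96 to 1.83. In knockdown cells, 56.0% or more of the UMIs of each were in 5 cells. Of 14 maturation genes, 12 were at least 1.2-fold higher and 2 lower, with a median log2 ratio of 0.94, where 20.6% of 7115 genes were higher and 20.7% lower and the median was -0.0003. Without the 5 cells of each library richest in S100a8 and S100a9 the median was 0.54, with 8 of 12 higher and 2 lower. Of all genes, 21.5% were then higher and 20.2% lower. Ngp then had a ratio of 0.59 (-0.17 to 1.32) and Camp of -0.02 (-1.12 to 0.98), against 1.35 and 1.83 with them. S100a9 remained at 1.07 (0.82 to 1.32).

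In the same comparison, monocyte markers gave 3 of 15 higher and 4 lower with a median of -0.12, and primary granule genes 0 of 13 higher and 4 lower with a median of -0.16. Elane was lower in knockdown co-expressing cells by a ratio of -0.36 (-0.41 to -0.30), Ctsg by -0.27 (-0.35 to -0.19) and Mpo by -0.19 (-0.27 to -0.10). These counting intervals exclude 0, but the spread between pools is unknown. Elane was also lower in both comparison groups, while Mpo was higher in both. Ctsg was at 1199 and 1196 CPM in Irf8-only and at 2890 and 3266 CPM in Gfi1/Cebpe-only cells (control and knockdown). Summed over the 13 primary granule genes, co-expressing cells had 16656 and 14856 CPM. The sums were 10838 and 11059 CPM in Irf8-only and 26836 and 27534 CPM in Gfi1/Cebpe-only cells.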

How the data were processed

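The authors deposited UMI counts for each gene and barcode of 10x Genomics 3' version 2 libraries. The submitters' processing notes name Cell Ranger 2.1.1 and mm10, and no annotation release is named in those notes. Barcodes with at least 500 genes and at most 10% mitochondrial UMIs were kept, which removed 13 control and 11 knockdown barcodes, and doublets were kept. Levels are UMI sums over a group's cells per 1e6 UMIs (CPM). Intervals are exact Poisson, split-of-UMIs or Clopper-Pearson. A group with no UMI was set to 3 counts in ratios. Called genes were 1.5-fold apart at 50 CPM or more (lists: 1.2-fold at 10 CPM), in both libraries where both were compared. Genes were named by a rule: the 3 genes of the limits, Cxxc5, the 8 highest and 8 lowest ratios of each comparison, and up to 6 members of each of 17 lists with 245 entries. One gene that the rule names is not reported here. Members and lists were chosen with earlier results of these data known. Thinning used 1 random draw. Sequences and windows came from RefSeq (GRCm38.p6). The arithmetic was tested on simulated data. Analyses used Python 3.11.15, scipy 1.17.1 and scanpy 1.11.5.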

Additional observations from a re-analysis of the deposited data

How the results depend on the processing

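No paired analysis was possible because each group had 1 library. The share of co-expressing cells was 0.143% and 0.131% (control and knockdown) after thinning to 5000 UMIs, 13.1% and 6.91% with limits of 1 UMI, 1.24% and 0.350% with limits of 3, and 1.88% of knockdown cells of 10000 to 20000 UMIs. Thinned results rest on 4 and 7 cells: 494 genes were then higher and 89 lower than in Irf8-only cells, 525 higher and 123 lower than in Gfi1/Cebpe-only cells, and 668 higher and 1264 lower in knockdown than in control. Thinned list medians were 1.17 (maturation, against Irf8-only, knockdown), 0.48 and 0.70 (monocyte, against Gfi1/Cebpe-only), and 0.19 and -1.08 (maturation and monocyte, knockdown over control). In cells of 10000 to 20000 UMIs, 7 genes were lower than in Irf8-only cells, and 232 were higher and 134 lower in knockdown. The medians there were 0.70 (maturation, against Irf8-only, control), 2.68 (monocyte, against Gfi1/Cebpe-only, control) and 1.80 (maturation, knockdown over control). A floor of 20 CPM gave 38 genes lower than in Irf8-only cells, 148 higher and 141 lower than in Gfi1/Cebpe-only cells, and 183 higher and 187 lower in knockdown. The mean of per-cell CPM gave 22 genes lower than in Irf8-only cells. Without the highest Scrublet scores the maturation medians were 1.04 and 2.25 against Irf8-only cells and 0.68 for knockdown over control, and 49 genes were higher in knockdown. Without the 5 cells of each library richest in S100a8 and S100a9, chosen after seeing the data, these medians were 0.37, 1.59 and 0.54. The cause of these shifts was not tested, and thinning and the depth range also leave fewer cells. The other 47 values moved by less than their counting interval or, for counts, by less than 1.5 times, and 1 of these changed sign: the monocyte median for knockdown over control was -0.12 (-0.61 to 0.49), and 0.10 without the highest Scrublet scores.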
